A study of Mus musculus with 8 samples.

Results

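The genes described here encode the receptors through which neurons sense glutamate, GABA, glycine and acetylcholine, and their mRNA was measured in embryonic mouse retinas with and without *Lhx2*, a homeodomain transcription factor of retinal progenitor cells. They were chosen by symbol, with earlier results of these data known, as the protein coding *Gria*, *Grin*, *Grik*, *Grid*, *Grm*, *Gabr*, *Gabbr*, *Glra*, *Glrb* and *Chrn* genes in the table of read counts. Of the 28432 genes in the table, 59 such genes are described, and *Chrna2*, *Chrna9*, *Gabra6* and *Gabrp* were not analysed here. Retinas of 4 *Lhx2* CKO embryos (*Lhx2* flox/-; *Hes1* CreERT2/+), whose labels write the genotype as *Lhx2*flox/KO, were set against those of 4 control embryos (*Lhx2* flox/+; *Hes1* CreERT2/+). All embryos were therefore heterozygous at *Hes1*, where the Cre is inserted, all carried a floxed *Lhx2* allele, and all dams received tamoxifen (0.15 to 0.2 mg per g of body weight by gavage) at E11.5. CKO embryos were also heterozygous for a null *Lhx2* allele in all cells, whereas control cells that lost the floxed allele kept 1 intact *Lhx2* allele. In the breeding scheme of the study all embryos also carried a *Rosa* ai14 reporter allele. Deletion of the floxed allele was driven in cells that express *Hes1*, chiefly retinal progenitor cells, and neurons born earlier would keep it. Each sample was the RNA of the 2 retinas of 1 embryo at E15.5, from 3 litters collected over 2 days, and no source used here says which litter or day a sample came from. By reads of *Xist* and Y-linked genes, CKO replicate 1 and control replicates 1 and 4 were female and the other samples male.

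Ionotropic receptors are channels built from several subunits that open when transmitter binds, whereas metabotropic receptors act through G proteins. Glutamate and acetylcholine mostly excite their targets, and GABA and glycine inhibit mature neurons but can depolarize immature ones. In the developing retina ganglion cells are among the earliest neurons to be born and express nicotinic, GABA and glutamate receptors before most synapses form, and nicotinic receptors carry the cholinergic waves of activity that spread across the mouse retina around birth.

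Sequencing depth was 13955259 to 19099937 reads in CKO samples and 13143587 to 15063867 reads in control samples, and these receptor genes together took 0.138 to 0.153% of the reads in CKO samples and 0.118 to 0.125% in control samples. The second principal component over all genes tested, with 17.6% of the variance, set CKO replicate 1 and control replicate 3 apart from the other samples, and values without them are given where they change a result. CKO replicate 1 was also the only female CKO embryo, so fits without it hold male CKO embryos only. Leaving out both libraries raised the calls over all genes, to 1042 that rose and 1062 that fell of 13678, from 505 and 691 of 13891. *Lhx2* had 2557, 2765, 2853 and 2868 normalized counts (read counts divided by a size factor per sample) in CKO samples, against 3478, 3081, 3631 and 3138 in control samples (log2FC -0.27, SE 0.0597, adjusted p = 0.00502), but these counts include exons outside the deletion and check neither the deletion nor the labels. Summed normalized counts of 15 retinal ganglion cell markers were 89987 to 96264 in CKO and 64609 to 75397 in control samples, and 8 of the 15 rose. Summed counts of 11 progenitor markers were 55003 to 63710.3 in CKO and 91440.3 to 101987 in control samples, with 7 falling and 1, *Sfrp2*, rising. Of 6 tested forebrain and hypothalamus markers 5 rose (sums 373 to 633 in CKO and 12.2 to 25.0 in control samples). With control sums so low, these markers could be tested only because of their CKO counts. Of 13 amacrine and horizontal cell markers 2 rose and 1 fell (sums 10438 to 11231 in CKO and 10547 to 11550 in control samples). Of 5 tested endothelium markers 2 fell and none rose (sums 2615 to 3412 in CKO and 4322 to 4587 in control samples). Of 5 pigment epithelium markers 1 rose and 1 fell (470.3 to 584 in CKO and 382 to 493 in control samples), and at an adjusted p below 0.05 1 was higher and 4 were lower. Of 5 glia and optic nerve markers 1 fell (2015 to 2439 in CKO and 1789 to 1947 in control samples), and of 2 mesenchyme markers 1 fell (39.7 to 109 in CKO and 96.2 to 171 in control samples). No photoreceptor precursor, blood or skeletal muscle marker passed. The defining markers of the retina, such as *Rax*, *Pou4f2* and *Crx*, were present in all samples.

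Of the 59 receptor genes, 43 passed the filter on low counts (20 or more normalized counts in 3 or more samples) and were tested. At an adjusted p below 0.001, from the quasi-likelihood test of edgeR with Benjamini-Hochberg adjustment over the 13891 genes that passed, 2 receptor genes rose in the CKO retina: *Chrnb2*, a nicotinic subunit, and *Gabbr1*, the subunit of the GABA-B receptor that binds GABA. They were 4.65% of the 43, beside 3.64% of all genes tested that rose. No receptor gene fell by edgeR, beside 4.97% of all genes tested, and none fell by DESeq2 (8.87%) or limma voom (4.9%) at the same cutoff. At an unadjusted p below 0.05 edgeR gave 20 higher receptor genes, beside 21.3% of all genes, and 2 lower, *Grin2c* and *Grik3*, beside 22.3%. DESeq2 called 5 receptor genes as higher (8.34% of all genes tested), adding *Chrna3*, *Chrna4* and *Grik2*, and limma voom called the same 2 as edgeR (3.54%). In simulated data of this design, edgeR recovered 4% of genes changed 1.3-fold, 44% of those changed 1.5-fold and 80% of those changed 2-fold. The changed genes were drawn at random from all genes tested, so these shares need not hold for the receptor genes. Only 50 genes were changed at each fold, whereas 505 rose and 691 fell in the data. The adjustment was therefore stricter in the simulation, and the shares recovered may be too low. No simulated sample was set apart as CKO replicate 1 and control replicate 3 were. The 2 that rose here were higher by 1.34-fold (*Chrnb2*) and 1.37-fold (*Gabbr1*).

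At the looser cutoff of an adjusted p below 0.05, 15 receptor genes were higher in the CKO, which is 34.9% of the 43 beside 15.9% of all genes tested, and 2 were lower, which is 4.65% beside 17.4%. The same 15 genes had no overlap between the genotypes, with every CKO sample above every control sample, beside 15.9% of all genes tested, and *Grin2c* alone had every CKO sample below every control sample, beside 17.9%. The log2FC was positive for 31 of the 43 (72.1%), beside 50.8% of all genes tested, and its median was 0.23, beside 0.0053 over all genes tested. Changes were small: the 15 genes ran from a log2FC of 0.22 (*Gria4*) to 0.96 (*Gria2*), 4 of them were higher by more than 1.5-fold, and 0 of the 43 had an absolute log2FC of at least 1, beside 3.28% of all genes tested. Retinal ganglion cell markers moved the same way (median log2FC 0.50, 14 of 15 higher at an adjusted p below 0.05). The 6 tested forebrain and hypothalamus markers were also higher (median 5.82). Their whole list summed to only 12.2 to 25.0 normalized counts in control samples, so they passed the filter through CKO samples. The filter thus largely fixed their direction, and their count and median carry no weight beside the receptor genes. The glia and optic nerve sum was also higher, without overlap between the genotypes. Of its 5 tested markers, though, 1 was higher and 1 lower at the looser cutoff. In whole retinas a larger share of a cell type and more RNA per cell cannot be told apart; the part of these cell types in the receptor values was not tested.

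**Figure D1:**
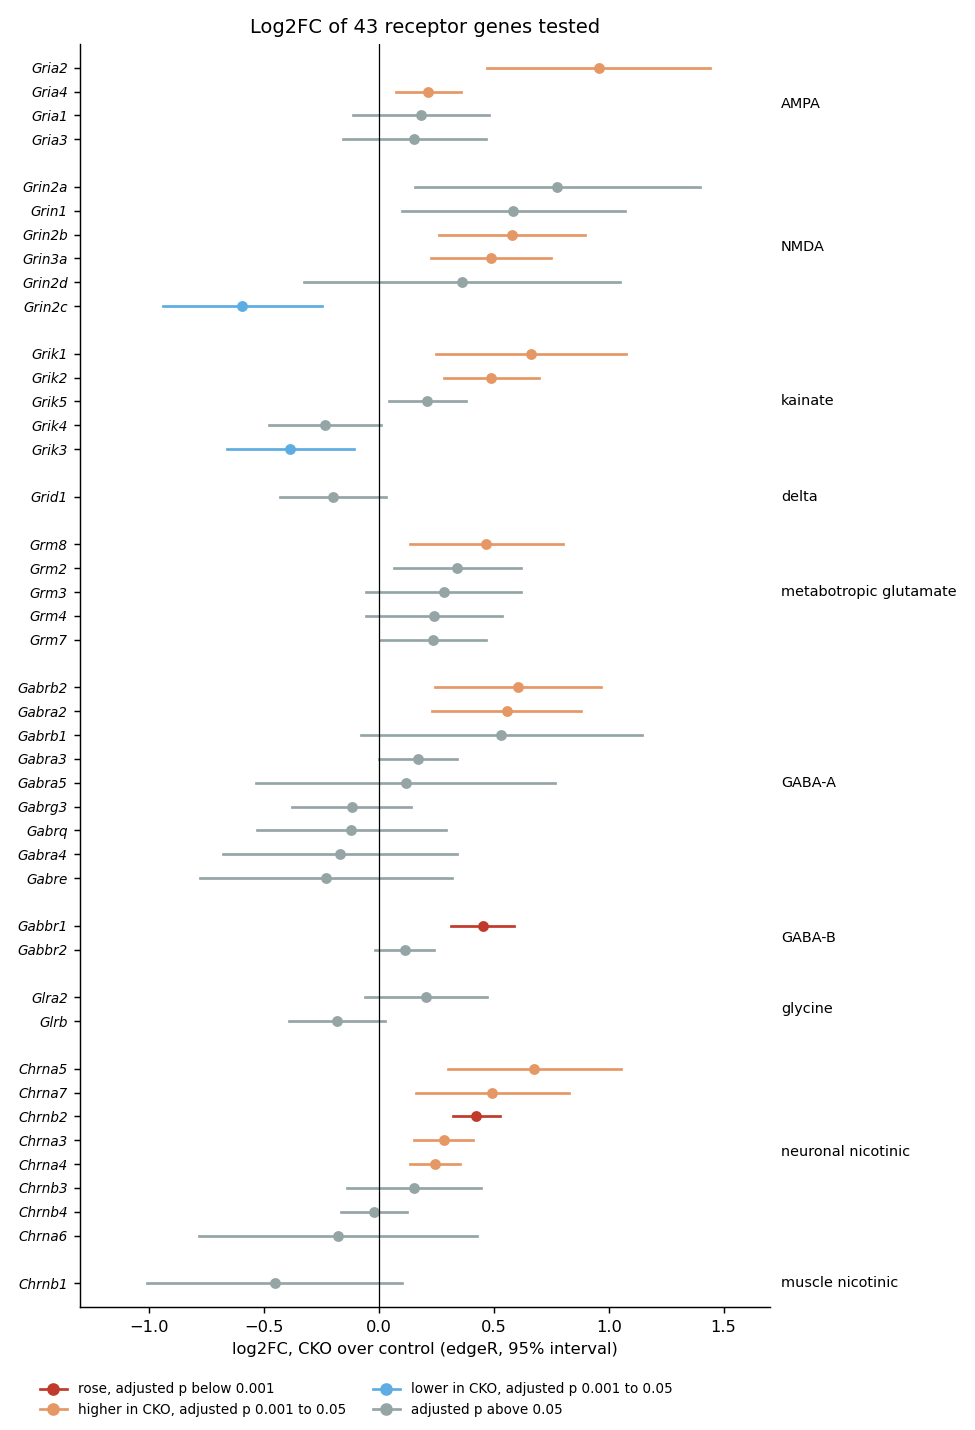
Log2FC (CKO over control, x axis) of each of the 43 receptor genes tested, grouped by family, with points for the edgeR estimate and lines for its 95% interval. Of the 43 points 31 lie right of 0, with *Gria2* farthest right at 0.96 and *Grin2c* farthest left at -0.59.

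*Gabbr1* was the most abundant receptor gene per length and rose. GABA-B receptors are obligate pairs of the *Gabbr1* product, which binds GABA, and the *Gabbr2* product, which couples to G proteins. *Gabbr1* (GRCm38, chr17:37045966-37075067, plus strand) had 5426, 5108, 4724 and 5010.1 normalized counts in CKO samples, against 3443, 3694, 4068 and 3644 in control samples. The genotypes did not overlap, and the means were 5067 ± 289.5 in CKO and 3712 ± 261 in control samples (SD, n = 4 each; log2FC 0.45, SE 0.0624, adjusted p = 2.6e-04). The direction was the same in every alternative run, but without CKO replicate 2 or 4, or control replicate 1, 2 or 4, the adjusted p was 0.00123 to 0.00179 and the call was lost. *Gabbr2* averaged 759.6 ± 44.4 in CKO and 704 ± 30.3 in control samples (log2FC 0.11, 95% interval -0.02 to 0.24, adjusted p = 0.164). Set per kilobase of exon (CPM per kb, the counts scaled to library size over the length of the union of annotated exons, on which genes of different length can be compared), *Gabbr1* stood at 42.5 ± 2.61 in CKO and 31.7 ± 2.39 in control samples and *Gabbr2* at 7.39 ± 0.394 in CKO and 6.97 ± 0.316 in control samples. As a share of the pair, *Gabbr1* made 85.2 ± 0.891% in CKO and 81.9 ± 0.733% in control samples, without overlap, which is a description with no test.

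The 250 bases before the start of *Gabbr1* (RefSeq, GRCm38.p6, chr17:37045716-37045965, plus strand), shown because it is the called gene with the highest level, hold the letters GGGCGG, the core of a GC box, at 2 places (in capitals).
Gabbr1: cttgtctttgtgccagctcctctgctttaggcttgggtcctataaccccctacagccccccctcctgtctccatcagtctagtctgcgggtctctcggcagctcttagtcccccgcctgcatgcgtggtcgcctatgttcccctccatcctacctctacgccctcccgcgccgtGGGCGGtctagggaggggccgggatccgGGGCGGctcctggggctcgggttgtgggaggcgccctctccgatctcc
The motifs searched, on both strands, were GGGCGG, the homeodomain core TAATTA, the E-box CAGNTG and the TATA box TATAAA. Among 32851 windows of 250 bases before RefSeq gene starts, 32.7% held GGGCGG, 4.84% TAATTA, 44.8% CAGNTG and 12.4% TATAAA. RefSeq windows matched 45 of the receptor genes (53 windows), of which 49.1% held GGGCGG, 3.77% TAATTA, 41.5% CAGNTG and 11.3% TATAAA. These are counts of letters and not of bound sites.

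GABA-A subunits assemble into chloride channels, and 9 of the 11 genes described were tested. None passed the cutoff by edgeR, limma voom or DESeq2. At an unadjusted p below 0.05, 2 were higher and none lower, beside 21.3% and 22.3% of all genes tested. *Gabra3*, an alpha subunit, was the most abundant of them at 7.37 ± 0.598 CPM per kb in CKO and 6.68 ± 0.34 in control samples (log2FC 0.17, adjusted p = 0.118). *Gabra2*, an alpha subunit common in embryonic brain, had 236, 283, 225 and 263 normalized counts in CKO samples, against 118, 178, 188 and 203 in control samples (log2FC 0.56, SE 0.148, adjusted p = 0.0132). *Gabrb2*, a beta subunit, had 168, 166, 135 and 161 in CKO samples, against 91.6, 121, 73.1 and 129 in control samples (log2FC 0.61, SE 0.165, adjusted p = 0.0151). Both genes were without overlap between the genotypes and higher at the looser cutoff; these and the other genes given by sample below, *Chrnb2* aside, were chosen after their values were seen. The other 6 tested genes, *Gabra4*, *Gabra5*, *Gabrb1*, *Gabrg3*, *Gabre* and *Gabrq*, had log2FC values from -0.23 to 0.53 and adjusted p-values from 0.166 to 0.792.

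GABA-A genes lie in clusters, and the neighbours did not all stand alike. On chromosome 7 *Gabra5* at 0.12 and *Gabrg3* at -0.12 on the log2 scale did not pass. In the chromosome 5 cluster *Gabra2* stood at 0.56 and *Gabrb1* at 0.53, of which only the first passed the looser cutoff, and *Gabra4*, at -0.17, did not. Exons of *Gabra4* and *Gabrb1* overlap on opposite strands, and reads from the overlap cannot be told apart in these unstranded libraries. On the X chromosome *Gabra3* (0.17), *Gabre* (-0.23) and *Gabrq* (-0.12) did not pass either cutoff.

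The rho subunits *Gabrr1*, *Gabrr2* and *Gabrr3*, which form the GABA channels of retinal bipolar cells, were too low to test, with at most 12.1 normalized counts in any sample, and *Gabrd* and *Gabrg1* were also below the filter. Bipolar cells are born later than this stage. Of the glycine receptor genes, *Glra2*, the alpha subunit of embryonic neurons, averaged 204 ± 29.2 normalized counts in CKO and 178 ± 20.2 in control samples (log2FC 0.20, adjusted p = 0.223). *Glrb*, the beta subunit that anchors the receptor at synapses, averaged 138 ± 5.46 in CKO and 157 ± 15 in control samples (log2FC -0.18, adjusted p = 0.165). Neither difference passed, and *Glra1*, *Glra3* and *Glra4* had at most 4.03 normalized counts in any sample.

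Among nicotinic receptors, *Chrnb2* was the receptor gene with the smallest p-value and rose. Its product, the beta subunit that pairs with several alpha subunits, is needed for the cholinergic waves of the neonatal mouse retina. *Chrnb2* (chr3:89746195-89764632, minus strand) had 1858, 1959, 1829 and 1919 normalized counts in CKO samples, against 1377, 1352, 1476 and 1447 in control samples. The lowest CKO sample lay well above the highest control sample, and the means were 1891 ± 58.6 in CKO and 1413 ± 58.2 in control samples (log2FC 0.42, SE 0.0465, adjusted p = 5.5e-05). It passed the cutoff in every alternative run, with log2FC values of 0.40 to 0.45. Its exons overlap those of *Adar*, an RNA editing enzyme gene on the opposite strand that was itself higher at the looser cutoff (log2FC 0.30, adjusted p = 0.00456), so part of either count may be reads of the other gene, and that part was not measured.

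*Chrna3* and *Chrna4* were the most abundant nicotinic genes per kb, at 32.2 ± 1.6 and 31.4 ± 1.6 CPM per kb in CKO samples and 27.0 ± 1.89 and 27.0 ± 0.444 in control samples. In each genotype these values differed by less than their spread, and both genes lay above *Chrnb2* (14.7 ± 0.313 in CKO and 11.2 ± 0.458 in control samples) and *Chrnb4* (13 ± 0.803 in CKO and 13.4 ± 0.793 in control samples). *Chrna3* had 2643, 2512, 2489 and 2769 normalized counts in CKO samples, against 2322, 2040.1, 2211 and 2010.0 in control samples (log2FC 0.28, SE 0.0591, adjusted p = 0.00373). *Chrna4*, the usual alpha partner of *Chrnb2* in brain, had 2298, 2509.6, 2296 and 2587 in CKO samples, against 2102, 2022, 2023 and 2039 in control samples (log2FC 0.24, SE 0.0497, adjusted p = 0.00309). Both genes were without overlap between the genotypes and passed the cutoff by DESeq2 (adjusted p = 9.1e-05 for *Chrna3* and 5.1e-05 for *Chrna4*) but not by edgeR. By edgeR *Chrna4* did pass without CKO replicate 1 and control replicate 3 (log2FC 0.26, adjusted p = 6.9e-04), and *Chrna3* with no filter on low counts (0.28, adjusted p = 9.1e-04).

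*Chrnb4* shares a cluster on chromosome 9 with *Chrna5* and *Chrna3*, with which it forms the receptor of autonomic ganglia, and it did not move with them. It had 677, 746, 744 and 804 normalized counts in CKO samples, against 807, 758, 748 and 703 in control samples, so the genotypes overlapped throughout. Its log2FC was -0.02 with a 95% interval of -0.17 to 0.12, while *Chrna3* stood at 0.28 with an interval of 0.15 to 0.41 and *Chrna5*, an accessory subunit, at 0.68 with an interval of 0.30 to 1.05 (adjusted p = 0.0109); the difference between neighbours was not tested. In the nicotinic total per kb *Chrnb4* made 12.8 ± 0.606% in CKO and 15.4 ± 0.642% in control samples, and *Chrnb2* 14.5 ± 0.328% in CKO and 12.8 ± 0.58% in control samples, each without overlap. By these values *Chrnb2* had the larger share in every CKO sample, and *Chrnb4* in every control sample. The shares of the 2 genes lay close, and their order rests on the annotated exon lengths. Exons of *Chrnb2* overlap those of *Adar*, so the nicotinic shares may hold reads of *Adar*, and that part was not measured. Whether the order of *Chrnb2* and *Chrnb4* would hold without such reads was not tested. The 250 bases before the starts of *Chrnb2*, *Chrna3* and *Chrnb4* (RefSeq, GRCm38.p6, minus strand, chr3:89764633-89764882, chr9:55026563-55026812 and chr9:55048545-55048794) are shown to set the called gene on chromosome 3 beside 2 genes of the chromosome 9 cluster, with matches to the 4 motifs in capitals.
Chrnb2: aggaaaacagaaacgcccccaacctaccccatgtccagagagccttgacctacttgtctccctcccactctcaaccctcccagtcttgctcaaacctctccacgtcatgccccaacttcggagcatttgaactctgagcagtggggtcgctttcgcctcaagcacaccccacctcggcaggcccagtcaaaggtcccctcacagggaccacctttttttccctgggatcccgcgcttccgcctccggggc
Chrna3: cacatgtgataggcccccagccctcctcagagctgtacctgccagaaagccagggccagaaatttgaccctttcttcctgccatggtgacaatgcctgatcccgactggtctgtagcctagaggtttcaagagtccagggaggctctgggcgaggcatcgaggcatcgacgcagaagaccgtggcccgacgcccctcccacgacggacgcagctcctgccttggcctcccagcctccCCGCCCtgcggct
Chrnb4: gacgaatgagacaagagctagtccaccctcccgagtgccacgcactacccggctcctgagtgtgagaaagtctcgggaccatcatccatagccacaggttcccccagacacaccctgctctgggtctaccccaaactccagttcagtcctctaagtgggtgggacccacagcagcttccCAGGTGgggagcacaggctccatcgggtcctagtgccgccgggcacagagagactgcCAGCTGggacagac
Most of the *Chrnb4* window lies inside the gene as GENCODE M21 draws it, since the 2 annotations place its start differently. *Chrna3* held 1 GGGCGG, on the opposite strand, *Chrnb4* held 2 CAGNTG, and the *Chrnb2* window held none of the 4.

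The remaining neuronal nicotinic genes split. *Chrna7*, whose product forms channels by itself, was higher at the looser cutoff (88.4 ± 13.1 normalized counts in CKO and 62.8 ± 9.26 in control samples; log2FC 0.49, adjusted p = 0.0274). *Chrnb3* and *Chrna6*, neighbours on chromosome 8 whose products join *Chrnb2* in receptors of ganglion cell axons, had log2FC values of 0.15 (adjusted p = 0.409) and -0.18 (adjusted p = 0.658). *Chrna10* had reads in control samples only, 2 in all, which is too few to compare. Of the 5 subunits of the muscle receptor only *Chrnb1* was tested, and it averaged 26.3 ± 5.0 normalized counts in CKO and 36.0 ± 10.3 in control samples (log2FC -0.45, adjusted p = 0.193). By edgeR it was lower at the looser cutoff without control replicate 3 (-0.62, adjusted p = 0.0481) and without both that sample and CKO replicate 1 (-0.77, adjusted p = 0.0146). Without CKO replicate 1 alone it missed that cutoff (-0.60, adjusted p = 0.114). *Chrna1*, *Chrnd*, *Chrne* and *Chrng* had at most 10.3 normalized counts in any sample. The 10 skeletal muscle markers in the table summed to 155 to 203 in CKO and 129 to 256 in control samples, 2 of them were tested and neither passed, and *Myod1* and *Myf5* were not analysed here.

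**Figure D2:**
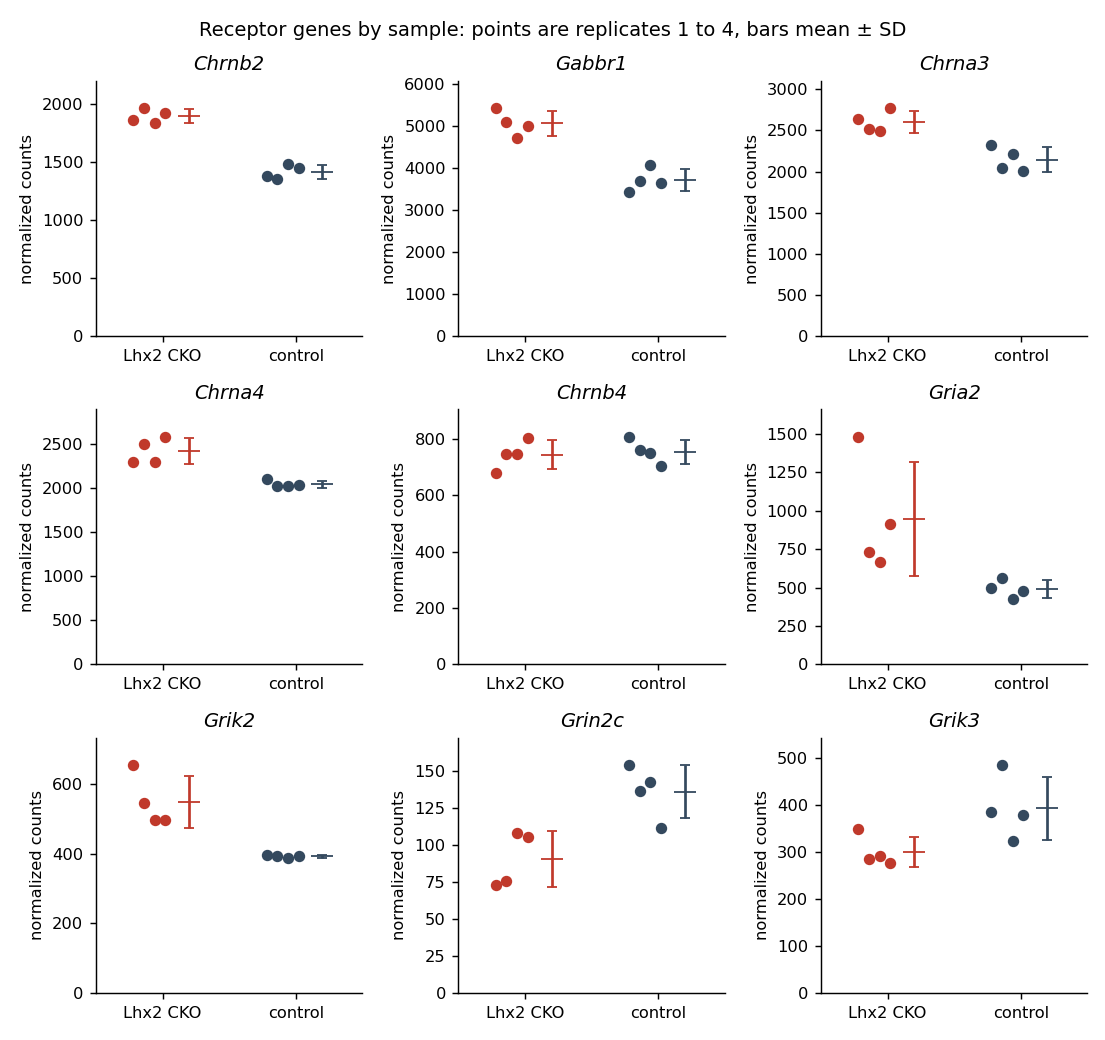
Normalized counts (y axis, from 0) of 9 receptor genes in each CKO and control sample, with bars for the mean and SD of the 4 samples. The genotypes do not overlap for *Chrnb2*, *Gabbr1*, *Chrna3*, *Chrna4*, *Gria2*, *Grik2* and, with CKO lower, *Grin2c*, and they overlap for *Chrnb4* and *Grik3*.

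None of the 21 glutamate receptor genes tested passed the cutoff of 0.001 by edgeR or limma voom and 1, *Grik2*, did by DESeq2, while at an unadjusted p below 0.05 edgeR gave 12 higher, beside 21.3% of all genes tested, and 2 lower, beside 22.3%. AMPA receptors carry fast excitation, and their *Gria2* subunit, once its mRNA is edited, limits the entry of calcium. *Gria2* had 1481, 729, 666 and 916 normalized counts in CKO samples, against 494, 564, 427 and 481 in control samples. All CKO samples were above all control samples, and CKO replicate 1 lay far above the other 3. The log2FC was 0.96 (SE 0.221, adjusted p = 0.00639) and 0.64 without CKO replicate 1, and without both that library and control replicate 3 it was 0.58 and passed the cutoff (adjusted p = 8.5e-04), as it did with no filter (0.95, adjusted p = 3.1e-07). *Gria4*, the most abundant AMPA gene at 8.47 ± 0.44 CPM per kb in CKO and 7.44 ± 0.457 in control samples, differed by 0.22 on the log2 scale (adjusted p = 0.0238), and *Gria1* and *Gria3* by 0.18 and 0.15 (adjusted p = 0.325 and 0.436). In shares of the AMPA total per kb, *Gria2* made 22.9 ± 6.73% in CKO and 15.3 ± 1.03% in control samples, without overlap.

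Kainate receptors need a subunit of the *Grik1* to *Grik3* group, with which the products of *Grik4* and *Grik5* assemble. *Grik2* had 655, 545, 497 and 498 normalized counts in CKO samples, against 397, 393, 388 and 393 in control samples. The control samples were almost alike, and all CKO samples lay above them (log2FC 0.49, SE 0.0937, adjusted p = 0.00218 by edgeR and 2.8e-05 by DESeq2). By edgeR *Grik2* passed the cutoff without CKO replicate 1 and control replicate 3 (0.38, adjusted p = 5.7e-04), with embryo sex as a covariate (0.53, adjusted p = 6.2e-04) and with no filter (0.49, adjusted p = 7.1e-05). *Grik3* went the other way, with 349, 285, 291 and 276 in CKO samples, against 387, 485, 324 and 379 in control samples, and CKO replicate 1 lay within the control range. Its log2FC was -0.39 (adjusted p = 0.0346), and it passed the cutoff without CKO replicate 1 and control replicate 3 (-0.56, adjusted p = 7.1e-04). *Grik5* was the most abundant glutamate receptor gene, at 22.8 ± 0.866 CPM per kb in CKO and 20.1 ± 2.64 in control samples. Its log2FC of 0.21 missed both cutoffs (adjusted p = 0.0534), but control replicate 3, at 1858 normalized counts, was within the CKO range of 1761 to 1889.9 while the other control samples had 1433 to 1548, and without it the log2FC was 0.30 with an adjusted p of 8.9e-04. *Grik1* was higher at the looser cutoff (log2FC 0.66, adjusted p = 0.0188) and *Grik4* did not pass it (-0.23, adjusted p = 0.126).

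NMDA receptors require the *Grin1* subunit and take *Grin2* or *Grin3* subunits that set their kinetics, and here the *Grin2* genes did not share a direction. *Grin2c* had 73.1, 75.8, 108 and 106 normalized counts in CKO samples, against 154, 136, 143 and 111 in control samples. It was the receptor gene with the lowest log2FC, at -0.59 (SE 0.158, adjusted p = 0.0132), and its genotypes did not overlap. *Grin2b*, the main *Grin2* subunit of the embryonic brain, averaged 174 ± 34.7 in CKO and 117 ± 11.2 in control samples (log2FC 0.58, adjusted p = 0.00989), and *Grin3a* averaged 108 ± 3.46 in CKO and 76.9 ± 9.17 in control samples (log2FC 0.49, adjusted p = 0.00859). *Grin1* differed by about as much (log2FC 0.58) but its control samples ranged from 55.4 to 121, and it missed the looser cutoff (adjusted p = 0.0619), as did *Grin2a* (0.78, adjusted p = 0.0543) and *Grin2d* (0.36, adjusted p = 0.406). In shares of the NMDA total per kb, *Grin2c* made 30.4 ± 6.34% in CKO and 48.2 ± 6.99% in control samples and *Grin1* 22.3 ± 1.28% in CKO and 15.4 ± 4.14% in control samples, each without overlap. Exons of *Grin1*, *Grin2b* and *Grin2c*, like those of *Gabra5*, *Grm2* and *Grm7*, overlap genes on the opposite strand, none of which passed the filter. Exons of *Grin2d* overlap *Gm45441* and those of *Grin3b* overlap *Tmem259*, also on opposite strands, so the NMDA shares may hold reads of these genes, and that part was not measured. The whole family was low, summing to 3.87 ± 0.203 CPM per kb in CKO and 3.74 ± 0.527 in control samples.

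**Figure D3:**
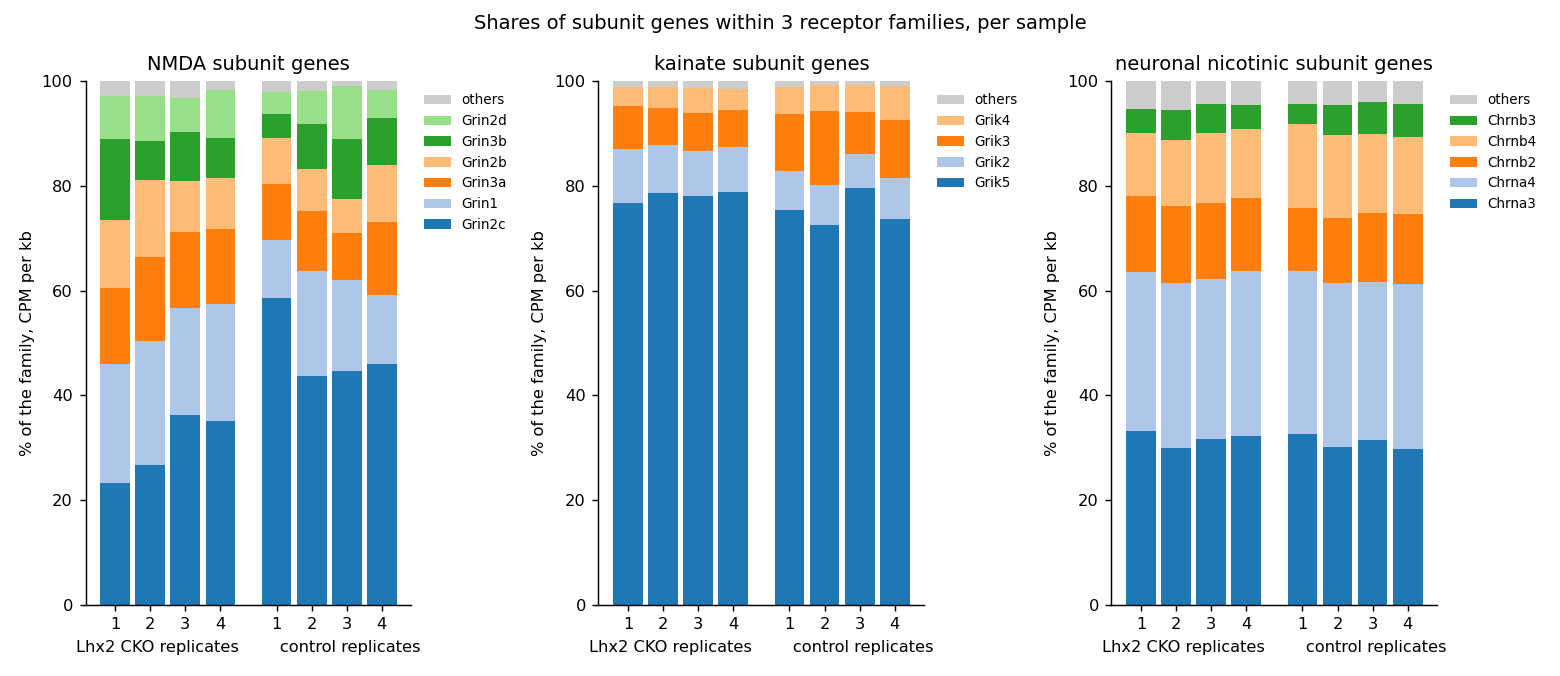
Share of each subunit gene in the summed CPM per kb of exon of its family (y axis, percent), in stacked bars for CKO replicates 1 to 4 and control replicates 1 to 4. *Grin2c* makes 30.4 ± 6.34% of the NMDA bars in CKO and 48.2 ± 6.99% in control samples, while *Grik5* makes 78.0 ± 0.957% of the kainate bars in CKO and 75.3 ± 3.15% in control samples.

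The delta receptor gene *Grid1*, a relative of the ionotropic glutamate receptor genes whose product binds cerebellins at synapses, did not pass a cutoff (log2FC -0.20, adjusted p = 0.164). All 5 tested metabotropic glutamate receptor genes had positive log2FC values, from 0.23 to 0.47, and none rose at the cutoff of 0.001 by edgeR, limma voom or DESeq2. At an unadjusted p below 0.05, 3 were higher, beside 21.3% of all genes tested. *Grm8*, which lowers cyclic AMP and acts at presynaptic terminals, had 86.6, 119.7, 93.0 and 86.4 normalized counts in CKO samples, against 59.4, 81.2, 75.4 and 63.8 in control samples, and was the gene of this family past the looser cutoff (log2FC 0.47, SE 0.153, adjusted p = 0.0348). Its genotypes did not overlap. *Grm7*, a presynaptic receptor and the most abundant of the family at 3.15 ± 0.308 CPM per kb in CKO and 2.73 ± 0.341 in control samples, had a log2FC of 0.23 (adjusted p = 0.11). *Grm2*, *Grm3* and *Grm4* stood at 0.34, 0.28 and 0.24 (adjusted p from 0.0578 to 0.196). *Grm6*, the receptor of ON bipolar cells, had 1 read in all CKO samples and 2 in all control samples, and *Grm5* was below the filter, at no more than 21.5 normalized counts in any sample.

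**Figure D4:**
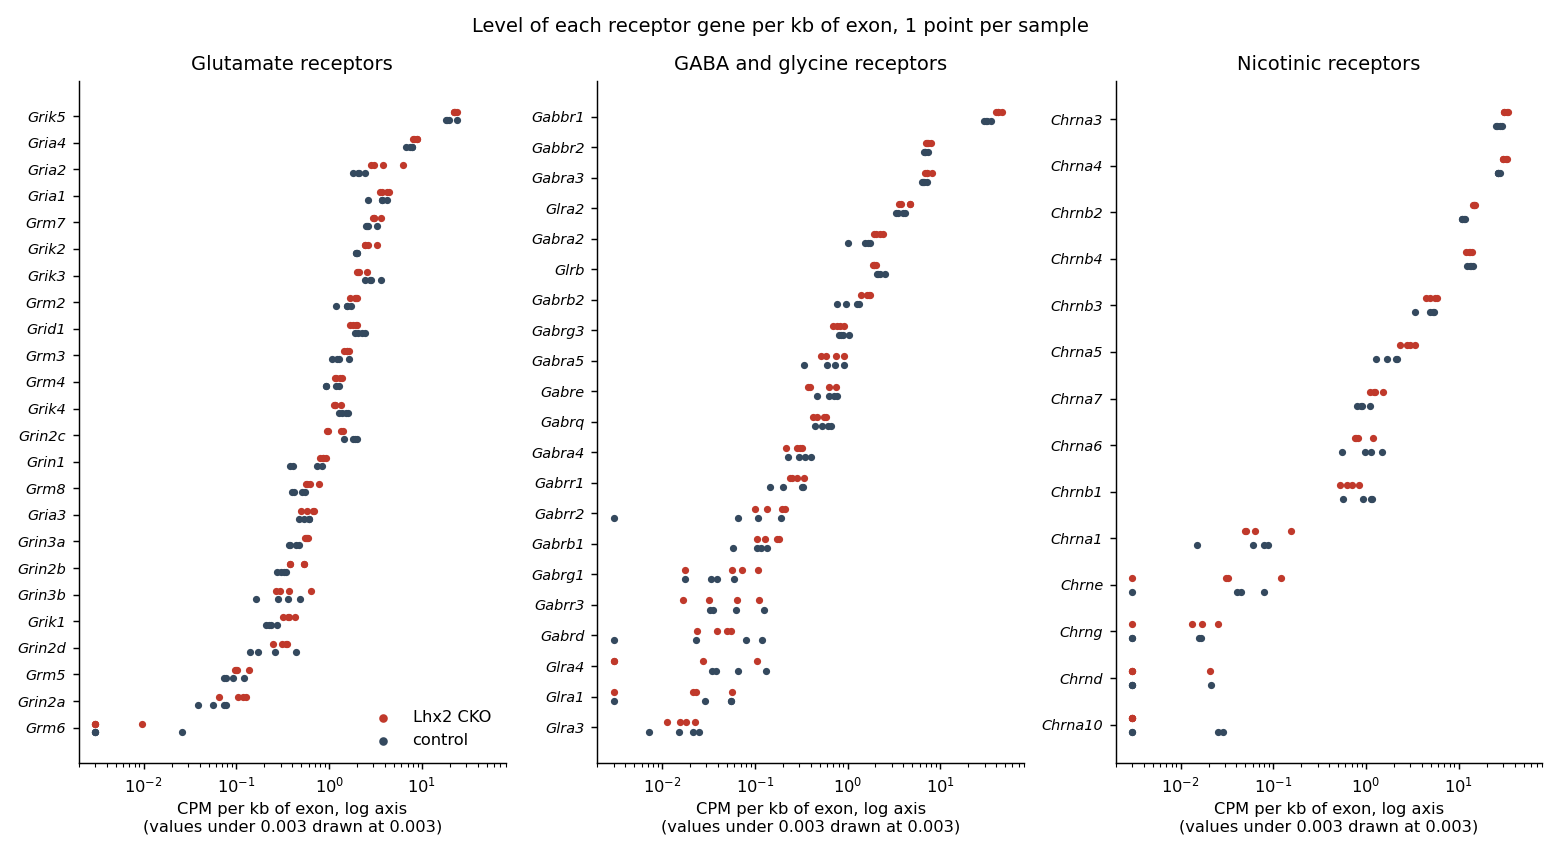
CPM per kb of exon (x axis, log scale, with values under 0.003 drawn at 0.003) of each of the 59 receptor genes, 1 point per sample, CKO above control in each row. *Gabbr1* (42.5 ± 2.61 in CKO and 31.7 ± 2.39 in control samples), *Chrna3*, *Chrna4* and *Grik5* have the highest levels, and the muscle genes other than *Chrnb1* are among the lowest. The untested *Gabrr1* (0.279 ± 0.0441 in CKO and 0.25 ± 0.092 in control samples) lies near the tested *Gabra4* (0.281 ± 0.0462 in CKO and 0.319 ± 0.0764 in control samples).

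Summed per kb over a family, nicotinic genes of neurons gave 101 ± 3.3 CPM per kb in CKO and 87.0 ± 2.39 in control samples, GABA-B genes 49.9 ± 2.72 in CKO and 38.6 ± 2.65 in control samples, kainate genes 29.3 ± 1.46 in CKO and 26.7 ± 2.36 in control samples, and AMPA genes 17.0 ± 1.7 in CKO and 13.6 ± 0.89 in control samples. The order of these families was the same in both genotypes. Precision followed the level: the 22 tested receptor genes of higher mean count had a median SE of 0.0999 on the log2 scale and the 21 of lower mean count 0.187. Among the first 22, 2 rose at the cutoff of 0.001 and 10 were higher at the looser cutoff, and among the other 21 the counts were 0 and 5, beside 3.64% and 15.9% of all genes tested.

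Genes that act with the receptors were described from lists of fixed membership. Their counts stand beside 3.64% of all genes tested that rose, 4.97% that fell and 15.9% that were higher at the looser cutoff. At an unadjusted p below 0.05 the shares of all genes were 21.3% higher and 22.3% lower, and by DESeq2 8.34% and 8.87%. Of 20 tested genes of transmitter synthesis and transport, 3 rose and 1 fell. *Slc1a2*, a glutamate uptake transporter, rose by 0.71 on the log2 scale (adjusted p = 1.2e-05), *Slc17a6*, the vesicular glutamate transporter of ganglion cells and also in the ganglion cell marker list, by 0.61 (adjusted p = 2.5e-05), and *Ache*, which degrades acetylcholine, by 1.14 (adjusted p = 8.9e-05). *Abat*, which degrades GABA, averaged 2201 ± 86.4 normalized counts in CKO and 2746 ± 158 in control samples and fell by 0.32 (adjusted p = 9.5e-04). *Chat*, which makes acetylcholine, was below the filter in these retinas. Exons of *Slc1a2*, *Ache* and *Shank1*, a gene of the next list, overlap annotated genes on the opposite strand.

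Of 33 tested partners of glutamate receptors, 2 rose and none fell (1 was lower at an unadjusted p below 0.05, and 1 by DESeq2): *Shank1*, a scaffold of excitatory synapses (log2FC 0.67, adjusted p = 3.7e-04), and *Grip1*, which binds AMPA receptors (0.30, adjusted p = 5.8e-04). Of 18 partners of GABA and glycine receptors none passed the cutoff by edgeR or limma voom, 4 did by DESeq2, 11 were higher at an unadjusted p below 0.05 and 10 at the looser cutoff, led by *Nlgn2*, an adhesion protein of inhibitory synapses (0.45, adjusted p = 0.00119), and *Lhfpl4*, which binds GABA-A receptors (0.31, adjusted p = 0.0012). Of 10 tested partners of nicotinic receptors, 1 rose and 1 fell. *Ric3*, a chaperone of nicotinic receptors whose exons overlap *Tub* on the opposite strand, had 895, 799, 801 and 844 normalized counts in CKO samples, against 616, 653, 609.7 and 612 in control samples (log2FC 0.43, adjusted p = 3.8e-04). *Lypd6*, a membrane-bound protein that binds nicotinic receptors, had 242, 278, 296 and 226 in CKO samples, against 497, 551, 589 and 545 in control samples (log2FC -1.06, adjusted p = 1.2e-05), so every CKO sample lay below every control sample. Of 39 tested pore subunits of voltage-gated channels, 3 rose and none fell (2 were lower at an unadjusted p below 0.05, and 1 by DESeq2), namely the calcium channels *Cacna1b* (0.63) and *Cacna1e* (1.06) and the potassium channel *Kcnc1* (0.67), with adjusted p-values from 4.2e-05 to 5.4e-04, and 21 were higher at the looser cutoff. The medians of the log2FC over the tested genes of these lists were 0.15 for synthesis and transport, 0.30 for glutamate partners, 0.21 for GABA and glycine partners, 0.16 for nicotinic partners and 0.41 for voltage-gated channels, beside 0.0053 over all genes tested.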

How the data were processed

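Poly(A) RNA of 8 mouse embryos (4 CKO and 4 control) was sequenced by the authors in 50 cycles from a single end on a HiSeq 2000, from unstranded libraries, and aligned to mm10 with TopHat 2. Cufflinks is also named in the submitters' processing notes. The values deposited are the authors' raw HTSeq counts per gene, without normalization or pooling. The sources used here give no version of the alignment and counting tools beyond TopHat 2, no strand setting and no annotation release. Coordinates and exon lengths come from GENCODE M21 on GRCm38, the assembly that mm10 also names, in which 28232 gene IDs were found. A gene counted as overlapping another where their exons share bases.

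The test took genes with 20 or more normalized counts in 3 or more samples, as in the study, and was run with edgeR 4.0.16 in R 4.3.3 (quasi-likelihood, TMM, genotype only, all 8 samples), and a gene passed when its p, adjusted by Benjamini-Hochberg, was below the cutoff of the study, 0.001. "Rose" and "fell" are used for genes that passed it. Normalized counts are counts over median-of-ratios size factors. Each SE is the log2FC divided by the root of its F statistic. Shares and sums over genes carry no test. P-values measure the spread between embryos and treat the embryos as independent. The embryos came from 3 litters, and neither litter nor day of collection could enter the test. Simulated data with known folds were used to check the test, and gave 0 false calls.

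Alternatives were DESeq2 1.42.0, limma 3.58.1 (voom), median-of-ratios or total scaling, no filter, filterByExpr, an adjusted p below 0.05, the replicate number as a block, embryo sex as a covariate and leaving out each sample; leaving out CKO replicate 1 and control replicate 3 together was added after the data were seen. A few genes that the symbols or lists take are not reported here, and counts over the receptor genes and lists leave them out; the fit and its adjustment keep every gene. The receptor genes and all lists were chosen with earlier results of these data known. Per-sample values are given for receptor genes past the cutoff or with an absolute log2FC of at least 1, highest-mean genes are named per family, and up to 5 genes with the smallest p per partner list; other genes given by sample were chosen after their values were seen.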

Additional observations from a re-analysis of the deposited data

Results flagged for a closer look

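Among 86 sets of 4 samples (43 receptor genes in each genotype), 3 had a sample whose gap to its nearest neighbour, as a part of the whole range, exceeded Dixon's 95% critical value, where chance gives about 1 in 20. All 3 were the highest CKO sample. *Grik4* in CKO replicate 3 had a ratio of 0.901, at 124 normalized counts beside 105 to 107 in the other CKO samples. *Grm7* in CKO replicate 1 had 0.873, at 323 normalized counts beside 269.7 to 276. *Chrna6* in CKO replicate 2 had 0.869, at 54.3 normalized counts beside 33.4 to 36.1.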

How the results depend on the processing

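The main count was 2 receptor genes that rose and 0 that fell. It was 5 that rose with DESeq2, beside 8.34% of all genes tested. With every gene tested and no filter it was 5, beside 964 of all 28432 genes. At an adjusted p below 0.05 it was 15 that rose and 2 that fell, beside 15.9% and 17.4% of all genes tested. Leaving out CKO replicate 1 and control replicate 3 together, chosen after the data were seen, gave 6 that rose and 1 that fell (*Grik3*). In that fit 1042 of all 13678 genes tested rose and 1062 fell, beside 505 and 691 of 13891 in the main fit. Leaving out each sample in turn gave 1 to 3 that rose and 0 that fell in the 8 fits, with 3 (*Grik5* added) without control replicate 3. Without that sample 707 of all 13886 genes tested rose and 846 fell. Limma voom, both other scalings, embryo sex as a covariate and filterByExpr moved neither count by more than 1.5 times. With the replicate number as a block 1 receptor gene rose (*Chrnb2*), and 272 of all 13891 genes tested rose and 404 fell. Same-numbered samples had correlations of 0.14, -0.15, 0.06 and -0.12 in their deviations from the group means. Pairs of unlike number ran from -0.26 to 0.25. With 4 samples per group these values cannot tell whether the numbers pair the samples. The cause of these differences was not tested.

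The sign turned for 3 genes that passed no cutoff. *Chrna6* stood at -0.39 to 0.039 with 1 sample left out, with the positive value without control replicate 3, and at 0.12 without both libraries. *Chrnb4* stood at -0.060 to 0.016 with 1 sample left out, positive without CKO replicate 1 (0.016) or control replicate 1 (0.013), and at 0.012 without both libraries. *Gabra5* stood at -0.10 to 0.32 with 1 sample left out, negative without CKO replicate 2 (-0.06) or control replicate 1 (-0.10), and at -0.0046 with sex as a covariate. The other scalings moved the median log2FC of all genes by at most -0.03. Depth limits the 16 untested receptor genes, none above 31.8 normalized counts in any sample.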
